A study of Mus musculus with 19 samples.

Results

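Collagens are secreted or membrane proteins whose chains wind into triple helices. The 44 protein-coding mouse genes with a symbol of the form Col, number, a, number were taken from the 41388 Ensembl genes counted in each library. They were grouped by known structure into 11 fibrillar genes, 8 basement membrane genes and 25 others, which comprised 6 beaded filament (type VI) genes, 9 FACIT genes (fibril-associated collagens with interrupted helices), 4 transmembrane genes and 6 network-forming or further genes. RNA was sequenced from whole brains of E13.5 embryos and from cerebellum of adult mice at 56 days post partum. The E13.5 samples were male brains, 3 Wiz+/+ and 3 Wiz MommeD30/+, and female brains, 2 Wiz+/+ and 2 Wiz MommeD30/+, and the adult samples were 3 Wiz+/+ and 3 Wiz MommeD30/+ cerebellums. The methods state that the adult mice were male. MommeD30 is an ENU-induced frameshift allele of Wiz, a zinc finger protein gene, carried here in the heterozygous state. All groups shared the inbred FVB/NJ background of the Line3 strain, which carries a multicopy GFP transgene under human alpha-globin control.

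Fibrillar collagens such as types I and III give connective tissue its tensile strength, and in the central nervous system they are found mainly in the meninges and around larger vessels. Type IV collagen, assembled from chains of the Col4a1 to Col4a6 genes, forms the sheet of basement membranes, including those of brain capillaries and the pial surface. Type XVIII and type XV collagens are basement membrane proteoglycans. The 3 pairs of type IV genes each lie head to head, so that the genes of a pair start next to each other and run apart.

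Total counts on genes ran from 16386029 to 50459755 per library, the lowest in the second male Wiz+/+ brain. The targeted gene Wiz was lower in every Wiz MommeD30/+ library than in any Wiz+/+ library of its tissue, at 118 to 130 CPM (counts scaled to a common library total) against 182 to 200 CPM in E13.5 brain, and at 66.6 to 67.7 CPM against 95.4 to 95.5 CPM in cerebellum. The labelled tissues were checked against marker lists. The 8 embryonic brain markers summed to 4112 to 4275 CPM in the E13.5 brains and 290 to 345 CPM in the cerebellums. The 8 cerebellum markers summed to 76.2 to 88.1 CPM and 7913 to 8338 CPM in the same order.

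Some of the start regions are shown because the genes beside them moved together or apart in the comparisons that follow. Coordinates are those of GRCm38, starts of the type IV genes those of GENCODE M21, and sequences are those of the RefSeq promoter table for build GRCm38.p6. The first is 30 bases on the plus strand at chr8:11312801-11312830, where Col4a2 (plus strand) starts at 11312805 and Col4a1 (minus strand) at 11312826, so that their first exons share the 22 bases in capitals.
Col4a1 and Col4a2: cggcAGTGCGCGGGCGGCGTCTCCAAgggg
Between the starts of Col4a4 (minus strand, 82586849) and Col4a3 (plus strand, 82586921) there are 71 bases, chr1:82586850-82586920, given on the plus strand.
Col4a4 and Col4a3: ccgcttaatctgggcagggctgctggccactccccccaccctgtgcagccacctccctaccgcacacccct
Col4a6 (minus strand, start at 141474076) and Col4a5 (plus strand, start at 141475385) are separated by 1308 bases on the X chromosome. The 150 bases before the start of Col4a6, chrX:141474077-141474226, read on its own strand with a GGGCGG motif (as CCGCCC) in capitals, are as follows.
Col4a6: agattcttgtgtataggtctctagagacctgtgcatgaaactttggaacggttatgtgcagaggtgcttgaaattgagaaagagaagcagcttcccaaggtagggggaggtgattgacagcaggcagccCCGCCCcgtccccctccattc

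The same window, 150 bases before the RefSeq start, is given for 3 fibrillar genes of the plus strand whose expression was lower in cerebellum (Col3a1), did not pass the test (Col5a1) or was higher there (Col27a1). The windows are chr1:45311388-45311537, chr2:27886275-27886424 and chr4:63215262-63215411. Capitals mark TATAAA or GGGCGG.
Col3a1: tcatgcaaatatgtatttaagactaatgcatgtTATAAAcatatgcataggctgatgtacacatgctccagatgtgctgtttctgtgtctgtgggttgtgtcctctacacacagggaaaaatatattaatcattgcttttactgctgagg
Col5a1: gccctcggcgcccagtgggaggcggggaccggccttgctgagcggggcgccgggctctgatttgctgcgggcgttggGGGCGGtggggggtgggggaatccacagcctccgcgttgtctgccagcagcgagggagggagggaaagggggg
Col27a1: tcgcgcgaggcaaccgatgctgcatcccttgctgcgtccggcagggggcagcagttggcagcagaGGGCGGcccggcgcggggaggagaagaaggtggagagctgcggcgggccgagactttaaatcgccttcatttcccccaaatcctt
Promoters were listed for 35 of the 44 genes, some with more than 1 start, giving 38 windows of 250 bases before a start. On either strand, GGGCGG was found in 57.9% of them and in 32.7% of all 32851 windows of that length. CCAAT was found in 34.2% and 33.9%, and TATAAA in 13.2% and 12.4%. A match describes the letters only.

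Wildtype cerebellum was compared with wildtype male E13.5 brain to see which collagens make up the matrix transcripts of each tissue. Collagen transcripts were less abundant in cerebellum. The 44 genes together had 1981 ± 108 CPM (SD, n = 3) in brain and 623 ± 23.97 CPM (SD, n = 3) in cerebellum, and no cerebellum library reached any brain library. Region and age differed together between these samples, so their parts cannot be told apart. In RNA from whole tissue, fewer cells of a type and less RNA per cell cannot be told apart either.

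The classes took different shares of the collagen counts in each tissue. Fibrillar genes summed to 891 ± 57.1 CPM in brain and 198 ± 12.4 CPM in cerebellum, or 45.0% and 31.8% of the collagen counts. Basement membrane genes summed to 767 ± 40.9 CPM and 203 ± 2.35 CPM, or 38.7% and 32.7%. The other collagens summed to 322 ± 13.4 CPM and 222 ± 11.4 CPM, so their share was 16.3% in brain and 35.6% in cerebellum. For each of these sums the groups of 3 did not overlap.

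**Figure D1:**
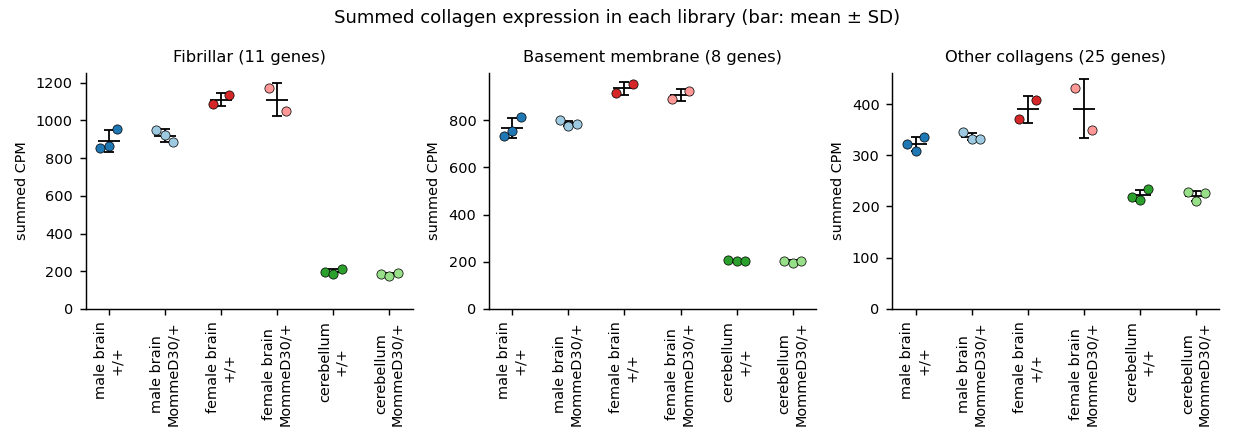
Summed CPM (linear axis from 0) of fibrillar, basement membrane and other collagen genes in each of the 16 libraries, with points for libraries and bars for the group mean and SD. Fibrillar and basement membrane sums were several times higher in E13.5 brain than in cerebellum, and the sums of both genotypes overlapped within each tissue and sex.

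Of the 43 collagen genes with enough counts to test, 29 had at least a 2-fold difference with an adjusted p no higher than 0.05 (edgeR's quasi-likelihood test with Benjamini-Hochberg adjustment over all genes), with 9 higher and 20 lower in cerebellum. The background was high, since 44.1% of all 16840 genes tested passed the same limits, 22.6% higher and 21.5% lower. By adjusted p alone 38 collagens passed, and 86.5% of all genes. The median log2 fold change was -0.71 over the collagens and -0.02 over all genes. Fold changes were scaled by edgeR's TMM factors and the printed CPM by total counts. A fold change between the tissues can thus differ from the ratio of the CPM beside it. By class, 8 of 11 fibrillar genes passed (2 higher, 6 lower), 7 of 8 basement membrane genes (2 higher, 5 lower) and 14 of 24 others (5 higher, 9 lower). Col10a1 was too low to test, at 0.0326 to 0.175 CPM in all libraries.

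Among fibrillar collagens, Col1a1, Col1a2, Col2a1, Col3a1, Col5a2 and Col11a1 were lower in cerebellum past both limits. Col3a1, the single chain of type III collagen, had 247, 241 and 281 CPM in the wildtype male brains and 9.65, 9.32 and 13.0 CPM in the wildtype cerebellums. The libraries of the tissues lay far apart, and the log2 fold change was -4.37 (SE 0.09, adjusted p = 1.2e-15). Col1a1, which encodes the alpha 1 chain of type I collagen, had 91.8, 97.9 and 107 CPM against 17.1, 15.9 and 18.6 CPM, a log2 fold change of -2.31 (SE 0.07). Col1a2, its partner chain, had 165, 164 and 186 CPM against 35.7, 33.1 and 37.0 CPM, a log2 fold change of -2.07 (SE 0.06). These 3 genes were high in all brains and low in all cerebellums, with no overlap.

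Col2a1 (type II, the main cartilage collagen), Col5a2 and Col11a1 also fell, with log2 fold changes of -3.48, -3.87 and -3.37 (SE 0.06, 0.09 and 0.08). The fibrillar genes Col27a1 and Col5a3 rose. Col27a1 had 10.6, 10.01 and 11.2 CPM in brain and 49.8, 46.1 and 50.9 CPM in cerebellum, a log2 fold change of 2.40 (SE 0.06, adjusted p = 1.1e-14), and Col5a3 had a log2 fold change of 2.24 (SE 0.14). Of the type V genes, Col5a2 fell, Col5a3 rose and Col5a1 did not pass, at -0.09 (SE 0.06). Col11a2 and Col24a1 did not pass either, at -0.10 (SE 0.06) and -0.37 (SE 0.26).

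The type IV genes went in opposite directions, and each head-to-head pair moved as a pair. Col4a1, a chain of the common type IV network, had 359, 366 and 392 CPM in brain and 24.996, 21.1 and 21.6 CPM in cerebellum. Its log2 fold change was -3.83 (SE 0.06, adjusted p = 4.6e-17). Col4a2, which encodes the other chain of that network, had 192, 202 and 215 CPM against 19.4, 17.5 and 20.4 CPM, a log2 fold change of -3.19 (SE 0.06). No library of either tissue came near the other tissue for these genes.

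Col4a5 and Col4a6, on the X chromosome, also fell, with log2 fold changes of -1.67 (SE 0.07) and -1.68 (SE 0.08). Col4a3 and Col4a4, which with Col4a5 form the network of the kidney filter, rose from low levels. Col4a3 had 0.555, 0.793 and 0.524 CPM in brain and 2.65, 2.77 and 1.83 CPM in cerebellum, a log2 fold change of 2.24 (SE 0.23). Col4a4 had 1.67, 1.34 and 1.48 CPM and 2.91, 3.68 and 3.33 CPM, a log2 fold change of 1.31 (SE 0.15). Of the Col4a3 exon bases, 5.65% are shared with another gene, and the kit did not mark strand.

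Col18a1, whose C-terminal fragment is endostatin, was the exception among the abundant basement membrane genes. It had 93.7, 102 and 111 CPM in brain and 134, 135 and 133 CPM in cerebellum, so that every cerebellum lay above every brain. Its log2 fold change of 0.61 (SE 0.05, adjusted p = 2.0e-08) was under the fold limit. Over the alternative scalings, filters, tests and samples it ran from 0.33 to 0.61. Col15a1, its relative, had 19.5, 19.1 and 22.5 CPM against 3.73, 3.21 and 3.20 CPM, a log2 fold change of -2.39 (SE 0.10).

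Among the other collagens, Col22a1, a FACIT known from tissue junctions, had the most negative value. It had 20.6, 21.9 and 22.7 CPM in brain and 0.654, 0.439 and 0.554 CPM in cerebellum, a log2 fold change of -5.08 (SE 0.12). Col26a1 followed at -4.89 (SE 0.10), and Col25a1, a transmembrane collagen of neurons, fell by 2.93 (SE 0.12). The highest value belonged to Col17a1, a transmembrane collagen of hemidesmosomes, which had 0.258, 0.305 and 0.378 CPM in brain and 5.86, 4.83 and 5.09 CPM in cerebellum. Its log2 fold change was 4.29 (SE 0.19).

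Also higher in cerebellum were Col7a1, the anchoring fibril collagen, at 1.80 (SE 0.07), Col19a1 at 1.77 (SE 0.15), Col9a3 at 1.26 (SE 0.05) and Col20a1 at 1.24 (SE 0.12). Against the female wildtype brains, Col20a1 had a log2 fold change of 0.77 and was then under the fold limit. The type VI genes, which form beaded filaments around cells, had 3 members past the limits, and all were lower: Col6a2 at -2.14 (SE 0.10), Col6a4 at -3.25 (SE 0.29) and Col6a5 at -1.24 (SE 0.25).

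**Figure D2:**
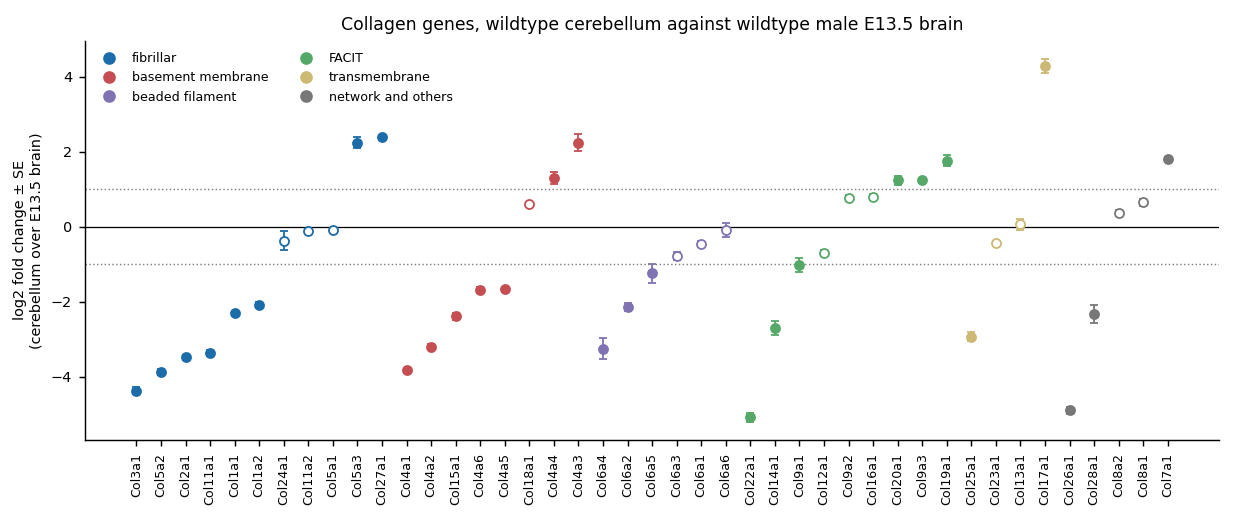
Log2 fold change of wildtype cerebellum over wildtype male E13.5 brain for the 43 tested collagen genes, by class, with bars for the SE, filled points past both limits and dotted lines at a fold change of 2. Values ran from -5.08 (Col22a1) to 4.29 (Col17a1), and each of the fibrillar, basement membrane, FACIT, transmembrane and further classes held genes on both sides.

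Levels of different genes were compared per kilobase of exon, with all annotated exons of a gene merged. The order thus depends on the annotated length, which was 12426 bases for Col1a2 and 6563 for Col1a1. It was 9816 bases for Col3a1 and 6619 for Col4a2. By CPM alone, Col1a2 (172) was above Col1a1 (99.0) and Col3a1 (256) above Col4a2 (203) in wildtype male brain. In wildtype male brain the highest levels per kilobase were those of Col4a1 (49.9 ± 2.32 CPM per kb), Col4a2 (30.6 ± 1.70), Col3a1 (26.1 ± 2.18) and Col1a1 (15.1 ± 1.20; SD, n = 3). Neighbours in this order from Col1a1 down, Col18a1 (14.5 ± 1.22), Col1a2 (13.8 ± 1.01) and Col2a1 (13.6 ± 0.827), each differed from the next by less than 1 SD. In cerebellum Col18a1 came first (19.1 ± 0.202 CPM per kb), followed by the FACIT genes Col9a3 (14.1 ± 0.652) and Col9a2 (8.66 ± 0.552). Col9a2 and Col9a3 encode chains of type IX collagen, which coats cartilage fibrils, and 6.07% of the exon bases of Col9a3 are shared with Tcfl5.

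The highest fibrillar genes in cerebellum were Col5a1 at 4.42 ± 0.227 CPM per kb, Col27a1 at 3.76 ± 0.194 and Col11a2 at 3.18 ± 0.288. Col4a1 and Col4a2 had 3.02 ± 0.286 and 2.89 ± 0.227 CPM per kb there, a difference smaller than their spread. In the beaded filament class Col6a1 was highest per kb in brain (6.06 ± 0.432 CPM per kb) and in cerebellum (3.81 ± 0.459). By CPM alone, Col6a3 (32.9) and Col6a2 (29.4) were above Col6a1 (26.6) in wildtype male brain. Their merged exons span 11963, 8326 and 4380 bases in that order. Col23a1 led the transmembrane class in brain (3.94 ± 0.282) and in cerebellum (2.50 ± 0.0765), and in the remaining class Col26a1 led in brain (4.67 ± 0.226) and Col8a2 in cerebellum (2.38 ± 0.136).

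Over all 16 libraries, the collagens whose log2 CPM was most like that of Col1a1 were Col1a2, Col4a2 and Col3a1, with Pearson's r of 0.995, 0.993 and 0.992. Those most like Col4a1 were Col4a2, Col26a1 and Col5a2, with r of 0.999, 0.999 and 0.998. These values describe 16 libraries that fall into 2 tissues, and the difference between tissues carries most of each r.

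Genes that make, bind or degrade collagen were examined from fixed lists. For comparison, 44.1% of all genes tested passed the tissue limits, 22.6% higher and 21.5% lower. Of the collagen processing genes, 15 of 31 tested passed the tissue limits, 5 higher and 10 lower. Serpinh1, the collagen chaperone HSP47, fell by 2.46 (SE 0.07) on the log2 scale, while Sparc, a collagen-binding matrix protein, Bmp1 and Tll1, both procollagen C-proteinases, rose by 1.92 (SE 0.04), 1.99 (SE 0.04) and 2.72 (SE 0.08). Of the collagen receptors, 7 of 10 passed and all 7 were lower. They included Adgrg1, a type III collagen receptor, at -2.72 (SE 0.06), Itgb1 at -1.25 (SE 0.05), Ddr1 at -1.07 (SE 0.04) and Itga1 at -1.76 (SE 0.09).

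Of the 15 basement membrane partners, 11 passed, 2 higher and 9 lower, where 44.1% of all genes passed. Agrn, Nid2, Hspg2 and Lama4, which encode agrin, a nidogen, perlecan and a laminin chain, fell, with log2 fold changes of -2.34, -3.32, -1.95 and -2.74. Of 8 tested genes for collagen degradation, 6 passed, 2 higher and 4 lower. Timp4 and Timp3, metalloproteinase inhibitors, rose by 6.24 (SE 0.06) and 1.17 (SE 0.07), and Mmp14 and Mmp2, which cleave collagen, fell, at -2.38 (SE 0.06) and -1.95 (SE 0.10).

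Markers of several cell types were also compared between the tissues, where 44.1% of all genes passed the limits. The 12 meningeal fibroblast markers, none of them a collagen, summed to 177 to 200 CPM in wildtype male brain and 103 to 127 CPM in wildtype cerebellum, and 6 of 12 passed the limits, 1 higher and 5 lower. The 10 endothelial markers summed to 362 to 378 CPM and 212 to 222 CPM, and 4 of 10 passed, 1 higher and 3 lower. The 6 choroid plexus markers summed to 275 to 340 CPM and 1748 to 1975 CPM. The 10 cartilage and bone markers were near 0 in brain, at 2.44 to 3.41 CPM in sum with up to 5 of them at 0. They had 20.4 to 23.5 CPM in cerebellum, with up to 3 of them at 0. The part of these cells in the collagen values was not tested.

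The effect of Wiz heterozygosity was compared within each tissue and sex. In cerebellum, 3 of 42 tested collagen genes were past both limits, an adjusted p no higher than 0.05 and a fold below 0.7 or above 1.3, and all 3 were higher in Wiz MommeD30/+. They were Col12a1, a FACIT of fibril surfaces, Col4a6 and Col6a6, a type VI chain. Over all 15979 genes tested, 0.832% passed, with 0.532% higher. The median log2 fold change was -0.07 over the collagens and 0.00 over all genes, with 16 collagens above 0 and 26 below.

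Col12a1 had 12.5, 12.6 and 13.9 CPM in the Wiz+/+ cerebellums and 18.2, 17.4 and 19.2 CPM in the Wiz MommeD30/+ cerebellums. The groups did not overlap, and the log2 fold change was 0.49 (SE 0.065, adjusted p = 0.000385 by edgeR's quasi-likelihood test). Col4a6 had 3.93, 4.22 and 4.57 CPM against 6.03, 5.53 and 6.35 CPM, again without overlap, with a log2 fold change of 0.50 (SE 0.105, adjusted p = 0.0112). Col6a6 had 1.24, 0.945 and 0.946 CPM against 1.80, 1.90 and 1.81 CPM, with a log2 fold change of 0.81 (SE 0.18, adjusted p = 0.0157). Without the third Wiz+/+ cerebellum its adjusted p by the same test was 0.0909, and without the first Wiz MommeD30/+ cerebellum it was 0.06. Under DESeq2's Wald test, Col12a1 and Col4a6 were past both limits, while Col6a6 was given no adjusted p.

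By adjusted p alone, 9 of 42 collagens passed in cerebellum, where 5.25% of all genes did. The further 6 were under the fold limits. Col17a1 was higher, at 0.35 (SE 0.097), and 5 were lower. Col1a1 had 17.1, 15.9 and 18.6 CPM in Wiz+/+ and 13.2, 13.7 and 15.04 CPM in Wiz MommeD30/+ cerebellum, so every Wiz MommeD30/+ library was below every Wiz+/+ library, with a log2 fold change of -0.30 (SE 0.071, adjusted p = 0.0201 by edgeR). Col4a2 had 19.4, 17.5 and 20.4 CPM against 15.2, 16.8 and 15.5 CPM, a log2 fold change of -0.27 (SE 0.066, adjusted p = 0.0235 by edgeR). Both calls were lost when single libraries were left out. By edgeR, the adjusted p of Col1a1 was 0.0571 without the first Wiz+/+ cerebellum and 0.138 without the third, and 0.116 and 0.0529 without the first and second Wiz MommeD30/+ cerebellum. That of Col4a2 was 0.0793 and 0.149 without the same Wiz+/+ libraries, and 0.121 and 0.0653 without the first Wiz MommeD30/+ cerebellum and without the third. The other 3 were Col5a3 at -0.44 (SE 0.115), Col11a2 at -0.24 (SE 0.064) and Col7a1 at -0.23 (SE 0.063).

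The partner chains of Col1a1 and Col4a2 did not pass in cerebellum, with log2 fold changes of 0.02 for Col1a2 and -0.10 for Col4a1. Col3a1 at -0.08 and Col18a1 at 0.00 did not pass either. Col4a5, the neighbour of Col4a6, had 13.7, 13.5 and 14.8 CPM in Wiz+/+ and 15.6, 13.6 and 14.8 CPM in Wiz MommeD30/+ cerebellum, and these overlapped.

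Of the fixed lists beside the collagens, 1 collagen receptor passed in cerebellum, Ddr2, a fibrillar collagen receptor, at 0.54 (SE 0.07). None of the 30 tested processing genes, 15 basement membrane partners or 8 degradation genes passed both limits. Red cell markers moved with genotype: 4 of 5 tested erythroid markers passed, all higher, and the 6 genes of that list summed to 145, 205 and 228 CPM in Wiz+/+ and 266, 481 and 280 CPM in Wiz MommeD30/+ cerebellum. With the mean of these markers as a covariate, an alternative added after the data were seen, Col12a1 still passed and Col4a6 and Col6a6 did not, at adjusted p of 0.152 and 0.185 by edgeR, while their log2 fold changes were 0.54 and 0.89. The adjusted p of Col1a1 and Col4a2 by edgeR was 0.261 and 0.121 with this covariate. Genes of any kind past both limits fell from 133 to 92. Because the erythroid sums did not overlap between genotypes, this fit cannot tell their part from that of genotype. None of the 12 meningeal markers passed.

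In male E13.5 brain, none of 42 tested collagens passed, where 0.184% of all 16848 genes did. An unadjusted p under 0.05 by edgeR was found for 9 of the 42 and for 1423 of all genes. DESeq2's Wald test called 0 of the collagens as well. The smallest p belonged to Col6a5, a type VI chain, which had 1.45, 1.34 and 1.34 CPM in Wiz+/+ and 2.43, 2.15 and 1.99 CPM in Wiz MommeD30/+. The groups did not overlap, and the log2 fold change was 0.66 (SE 0.148, adjusted p = 0.178 by edgeR). Col1a1 had 91.8, 97.9 and 107 CPM against 87.0, 87.6 and 87.1 CPM, a log2 fold change of -0.19 (SE 0.050, adjusted p = 0.268 by edgeR). The genes past the limits in cerebellum did not pass here. Col4a6 had 15.7, 15.989 and 15.6 CPM against 19.1, 18.7 and 17.4 CPM, a log2 fold change of 0.22 (SE 0.061, adjusted p = 0.268 by edgeR), and Col6a6 had 1.25, 1.34 and 1.31 CPM against 1.81, 1.98 and 1.61 CPM, at 0.48 (SE 0.155, adjusted p = 0.417 by edgeR). Neither overlapped between genotypes in male brain. Log2 fold changes were 0.06 for Col1a2, 0.03 for Col3a1, 0.00 for Col4a1, 0.02 for Col4a2 and 0.06 for Col18a1.

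In female E13.5 brain, none of 43 passed, where 0.111% of all 17152 genes did. An unadjusted p under 0.05 by edgeR was found for 3 collagens and for 1098 of all genes. DESeq2's Wald test called 0 collagens here too. The smallest p belonged to Col22a1, with 25.5 and 22.2 CPM in Wiz+/+ and 30.4 and 28.7 CPM in Wiz MommeD30/+, a log2 fold change of 0.31 (SE 0.089, adjusted p = 0.773 by edgeR). The female values were 0.01 for Col1a1, 0.02 for Col1a2, -0.12 for Col3a1, -0.06 for Col4a1, -0.08 for Col4a2 and 0.05 for Col18a1.

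With all 10 brains in 1 fit and sex as a covariate, no collagen passed both limits, where 0.346% of 17620 genes did. An unadjusted p under 0.05 by edgeR was found for 8 of 43 collagens and for 2078 of all genes. Col22a1 passed by adjusted p alone. It had 20.6, 21.9 and 22.7 CPM in male Wiz+/+ and 32.5, 25.4 and 26.4 CPM in male Wiz MommeD30/+ brains. In both sexes every Wiz MommeD30/+ brain was above every Wiz+/+ brain, and the log2 fold change was 0.34 (SE 0.066, adjusted p = 0.0408 by edgeR), just under a fold of 1.3. By adjusted p alone 0.477% of all genes passed. The adjusted p of Col22a1 by edgeR ranged from 0.0281 to 0.173 with 1 library left out. It was above 0.05 without any 1 of the male Wiz+/+ brains, without the second female Wiz+/+ brain and without either female Wiz MommeD30/+ brain. Col9a1 was next by p, at 0.61 (SE 0.141, adjusted p = 0.103 by edgeR), and was the 1 collagen past both limits under DESeq2's Wald test (0.61, SE 0.159, adjusted p = 0.0168). In this fit Mmp9, a gelatinase, was the single gene of the processing, receptor, partner and degradation lists past both limits, at -0.70 (SE 0.10).

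The difference between genotype effects was tested directly. No collagen passed the genotype by tissue term, where 0.26% of 17337 genes did. The smallest p belonged to Col12a1, whose effect was higher in cerebellum than in male brain by 0.48 on the log2 scale (SE 0.114, adjusted p = 0.107 by edgeR). In male brain Col12a1 had 23.3, 22.5 and 27.6 CPM in Wiz+/+ and 26.4, 25.5 and 22.6 CPM in Wiz MommeD30/+, which overlapped. No collagen, and no gene of any kind among 17620, passed the genotype by sex term.

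**Figure D3:**
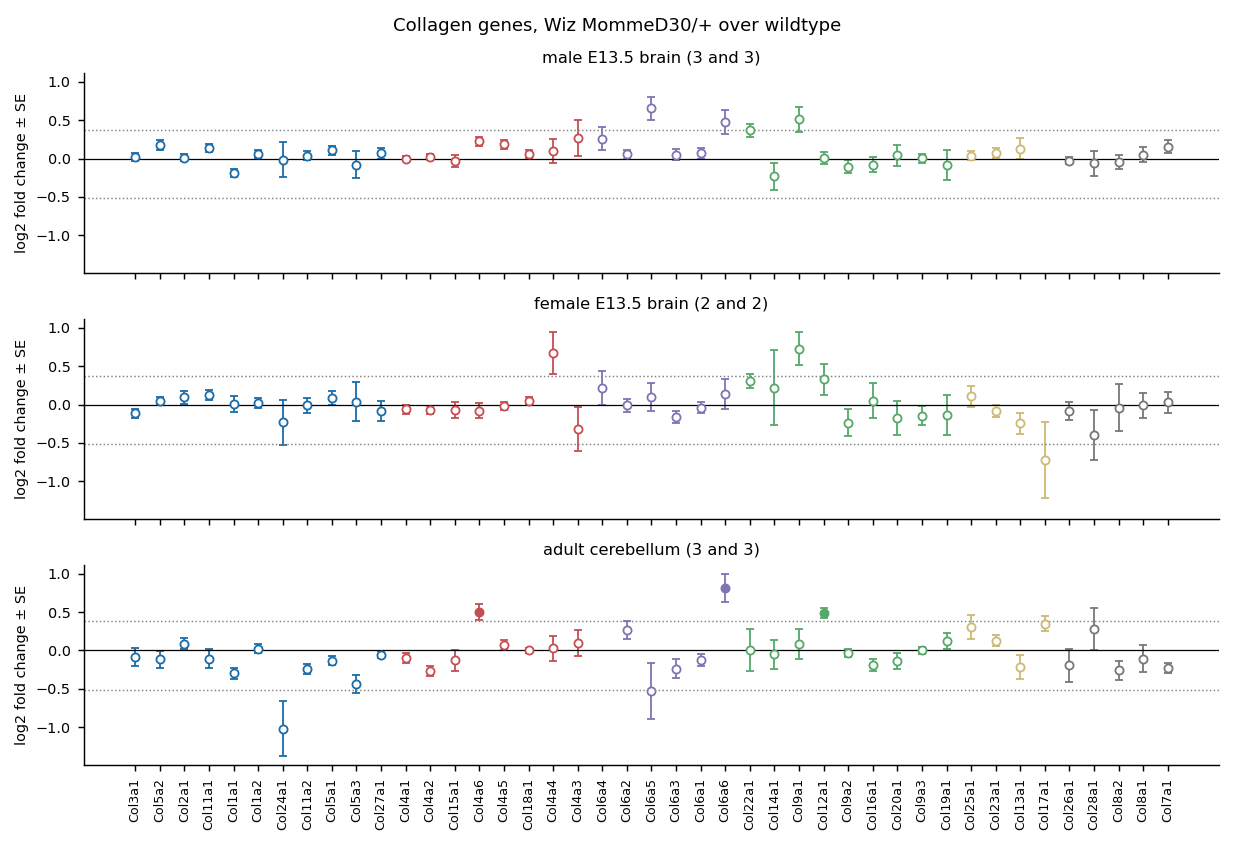
Log2 fold change of Wiz MommeD30/+ over Wiz+/+ for collagen genes in male brain, female brain and cerebellum, with bars for the SE, filled points past both limits and dotted lines at fold changes of 0.7 and 1.3. Filled points appear in cerebellum only, for Col12a1, Col4a6 and Col6a6.

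**Figure D4:**
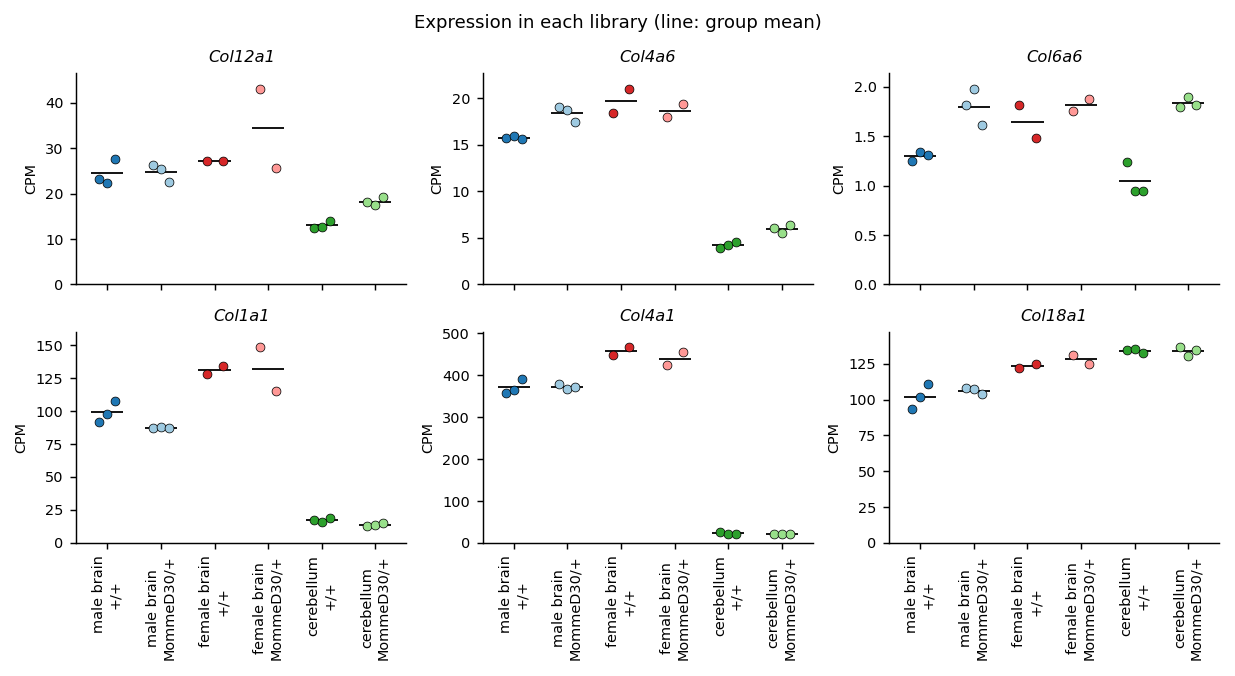
CPM (linear axis from 0) in each library of the 3 genes past both limits in cerebellum (Col12a1, Col4a6 and Col6a6) and of Col1a1, Col4a1 and Col18a1, with a line at each group mean. Col12a1 reached 43.1 CPM in the first female Wiz MommeD30/+ brain, against 25.6 CPM in the second.

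The embryonic brain is wrapped in meninges rich in fibroblasts, and the spread between brains of the same group was examined. The collagens had a higher median spread than all genes, in a comparison not matched for expression level. Some of the widest had few counts. Col24a1, Col19a1 and Col5a3 had 18, 23 and 22 counts in the second male Wiz+/+ brain, while Col14a1 and Col12a1 had 123 and 368. The part of counting noise in these spreads was not tested. Among the 41 collagens with a mean of at least 1 CPM in E13.5 brain, the median SD of log2 CPM within groups was 0.125, against 0.0757 over 14613 genes. The median was 0.0986 for fibrillar genes, 0.0754 for basement membrane genes and 0.244 for FACIT genes. The 12 meningeal markers had a median of 0.174 and the 10 endothelial markers 0.0625. In cerebellum the median was 0.109 over 38 collagens and 0.0619 over all genes.

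The widest spread in brain was that of Col14a1, a FACIT. It had 12.8, 7.51 and 11.6 CPM in male Wiz+/+, 7.24, 11.2 and 10.004 CPM in male Wiz MommeD30/+, 4.78 and 13.5 CPM in female Wiz+/+ and 14.7 and 6.60 CPM in female Wiz MommeD30/+ brains. Brains of 1 group thus differed more than the groups did. Its SD of 0.62 exceeded that of 99.7% of genes. Col14a1 was singled out after its values were seen.

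In cerebellum the widest spread was that of Col8a1, a network-forming collagen, also singled out afterwards. It had 6.87, 7.46 and 7.79 CPM in Wiz+/+ and 9.13, 4.14 and 7.26 CPM in Wiz MommeD30/+, and its relative Col8a2 had 10.2, 11.4 and 10.5 CPM and 10.6, 6.38 and 9.72 CPM. Both were lowest in the second Wiz MommeD30/+ cerebellum. In that library the 6 choroid plexus markers summed to 955 CPM, against 1748 to 2052 CPM in the other cerebellums.

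Whether collagens varied with meningeal markers within groups was tested by adding the mean log2 CPM of the 12 markers as a covariate over the 10 brains. No collagen and no other gene among 17620 passed. An unadjusted p under 0.05 was found for 11 of 43 collagens and 1959 of all genes. Slopes were above 0 for 33 of 43 collagens and 10 of 11 fibrillar genes, with a median of 0.40 over the collagens and 0.00 over all genes, in log2 CPM of the gene per unit of the marker mean. The deviations of the marker mean from its group ran from -0.13 to 0.13.

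The 5 collagens with the smallest p were Col5a1 (slope 0.89, SE 0.177, adjusted p = 0.124 by edgeR), Col12a1 (1.69, SE 0.386), Col8a2 (2.37, SE 0.595), Col2a1 (0.68, SE 0.175) and Col9a1 (1.97, SE 0.521). Slopes were 0.82 for Col1a1 (SE 0.222), 0.47 for Col1a2, 0.31 for Col3a1 and 0.47 for Col18a1. Those of Col4a1 and Col4a2 were -0.05 (SE 0.177) and 0.02 (SE 0.183). Of the 5, all had slopes below 0 on the mean of 10 mural cell markers when it took the place of the meningeal mean, and none passed. The mural mean deviated from its group by -0.046 to 0.054 only.

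With the mean of the 10 endothelial markers as covariate, 3 of 43 collagens passed, all with slopes below 0, where 0.159% of all genes passed and 0.114% did so with a slope below 0. They were Col14a1, Col9a2 and Col28a1, and their slopes were -1.71 (SE 0.25), -0.61 (SE 0.096) and -1.13 (SE 0.19) in log2 CPM for each 0.1 of the marker mean. The marker mean deviated from its group by no more than 0.038 in either direction. Without the second male Wiz+/+ brain, or without either female Wiz+/+ brain, none passed, and 1 passed without the first male Wiz MommeD30/+ brain. Col4a1 and Col4a2 had slopes of 0.08 for each 0.1 (SE 0.063 and 0.065) and did not pass.

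**Figure D5:**
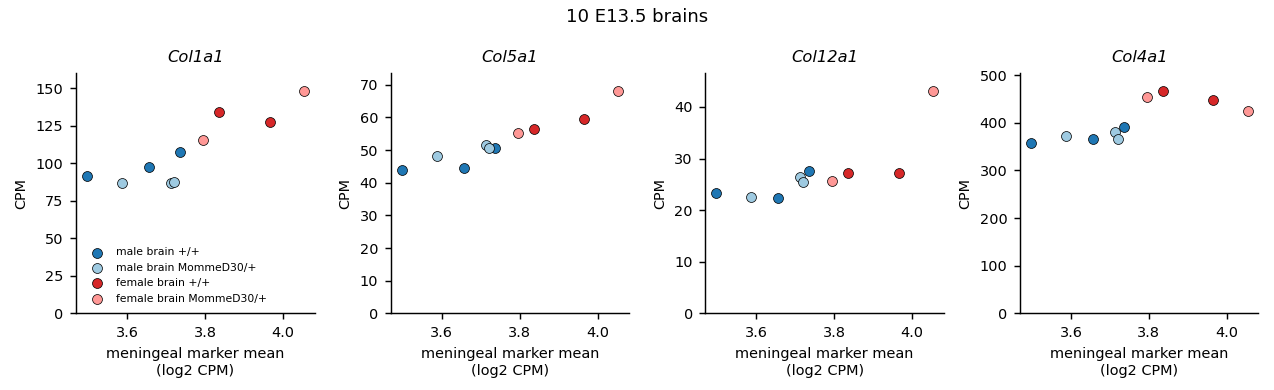
CPM of Col1a1, Col5a1, Col12a1 and Col4a1 against the mean log2 CPM of 12 meningeal markers in the 10 E13.5 brains, colored by sex and genotype. The first female Wiz MommeD30/+ brain had the highest marker mean, 4.05, and the highest Col1a1, Col5a1 and Col12a1, while its Col4a1 of 425 CPM was below those of the other female brains.

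Female and male brains were also compared, in the fit over all 10 brains, a comparison added after the data were seen. By adjusted p alone 18 of 43 collagens passed and all 18 were higher in female brains, where 11.2% of all genes passed in either direction and 5.48% were higher. Past both limits were Col1a2, Col6a1, Col1a1, Col9a1 and Col13a1, where 1.46% of all genes were, 0.636% being higher in females. Col1a2 had 223 and 236 CPM in female Wiz+/+ and 245 and 222 CPM in female Wiz MommeD30/+ brains, against 164 to 186 CPM in the 6 male brains. No male brain reached a female brain, and the log2 difference was 0.39 (SE 0.04, adjusted p = 0.00031 by edgeR).

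Col1a1 differed by 0.50 (SE 0.06), Col6a1 by 0.40 (SE 0.05), Col9a1 by 0.61 (SE 0.14), Col13a1 by 0.41 (SE 0.10), Col3a1 by 0.30 (SE 0.04), Col4a1 by 0.26 (SE 0.03), Col4a2 by 0.25 (SE 0.03) and Col18a1 by 0.27 (SE 0.04), all higher in female brains. Markers moved the same way. All 12 meningeal markers were higher in female brains, 5 of them by adjusted p, and summed to 215 to 247 CPM against 177 to 204 CPM in male brains. All 10 endothelial markers were higher, 4 by adjusted p, as were 3 of 6 erythroid markers past both limits. With the meningeal mean as a further covariate no collagen passed, and the log2 differences of Col1a2 and Col1a1 were 0.27 and 0.28. Genes of any kind past both limits fell from 258 to 11 in that fit. The meningeal mean was 3.50 to 3.74 in male and 3.79 to 4.05 in female brains. Without overlap between the sexes, the fit cannot tell its part from that of sex. Sex and any difference in collection or sequencing between the male and female sets cannot be told apart.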

How the data were processed

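Members and gene lists were chosen with earlier results of these data known. Per the labels and the study's methods, polyA RNA was extracted with TRIzol, made into libraries with an Illumina TruSeq kit and sequenced as single-end reads. Reads were mapped to mm10 with TopHat2 2.0.11 and counted with HTSeq 0.6.1. The labels also name BWA among the processing tools, which the study's methods do not. The authors deposited raw counts per Ensembl gene, 1 file per sample. The counting mode is not given in the sources used here. The 3 ChIP-seq samples were not analysed here.

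Symbols, positions and exon lengths came from GENCODE M21, which held 40340 of the 41388 identifiers. Of the 44 collagens, 13 share exon bases with another gene, none more than 10%. CPM was scaled by total counts. Tests used edgeR 4.0.16 in R 4.3.3 with TMM, filterByExpr at a minimum count of 10, the quasi-likelihood test and Benjamini-Hochberg adjustment over all genes tested. The SE of each log2 fold change is its size divided by the root of F. Samples were grouped by their labels, and nothing states separate litters, so p-values measure the spread between these samples. Replicate pairs differed beyond sampling noise (chi-square over its degrees of freedom, 2.11 to 11.2). Python 3.11.15, numpy 2.4.6 and pandas 2.3.3 computed levels, spread (log2 of CPM plus 0.05) and motifs. The male, female, both-sex, tissue, genotype by tissue and meningeal fits were also run on simulated data, and the other fits were not. The simulated meningeal covariate varied more than the real one, whose SD within groups was 0.117. DESeq2 1.42.0, other scalings, filters, covariates and left-out libraries were alternatives.

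Genes were named by rule: in genotype comparisons the collagens past the limits or else the one with the smallest p, in the tissue comparison up to 8 per direction, in covariate fits up to 5, the 3 of each class highest per kilobase, and Col1a1, Col1a2, Col3a1, Col4a1, Col4a2 and Col18a1 throughout. Further genes were named after their values were seen.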

Additional observations from a re-analysis of the deposited data

How the results depend on the processing

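The tissue count of 29 stayed between 28 and 31 under scaling, filter, DESeq2's Wald test, replicate block, other samples and left-out libraries, and was 38 by adjusted p alone. Without a filter on low counts, 2 collagens passed in male brain, 1 over both sexes, 5 in the genotype by tissue term and 1 with the meningeal covariate. Genes of any kind past the limits rose as well, from 31 to 175, 61 to 101, 45 to 416 and 0 to 48 in the same order. Over both sexes 1 passed under DESeq2's Wald test (Col9a1) and 1 by adjusted p alone (Col22a1), and 0 to 1 with 1 library left out, Col9a1 without the third male Wiz+/+ brain and Col22a1 without the first female Wiz+/+ brain. Of all genes, 68 and 84 passed in the first 2 of these and 42 to 76 with 1 library left out, against 61 in the main fit. With the endothelial mean added, 1 collagen passed with the meningeal covariate, where 48 genes of any kind passed. In cerebellum 9 passed by adjusted p alone, 2 under DESeq2's Wald test, 1 with the erythroid mean and 2 to 5 with 1 library left out, 5 without the first Wiz+/+ cerebellum. Of all genes, 839, 80 and 92 passed in the first 3 of these. With 1 library left out it was 70 to 153, against 133 in the main fit. The endothelial count of 3 ranged from 0 to 3 and the sex count of 5 from 3 to 13 with 1 library left out. Genes of any kind past the limits then ranged from 5 to 240 and from 156 to 318, against 28 and 258 in the main fits. The sex count was 13 without the second female Wiz MommeD30/+ brain and 3 without the first male Wiz+/+, the second female Wiz+/+ or the first female Wiz MommeD30/+ brain. It was 0 with the meningeal mean and 1 in Wiz MommeD30/+ brains alone, and 11 genes of any kind passed in each of these fits. In Wiz+/+ brains alone the sex count was 6, where 213 genes of any kind passed. The cause of these changes was not tested. Scaling by total counts, added after the data were seen, left every count as it was.

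With the mural mean in place of the meningeal mean, slopes on the mural mean were -1.85 (Col5a1), -3.30 (Col12a1), -5.08 (Col8a2), -0.17 (Col2a1) and -4.23 (Col9a1). Their adjusted p by edgeR ran from 0.82 to 0.99. Genotype values near 0 turned sign. In male brain Col4a1 was -0.00031 with DESeq2's size factors and -0.00035 with its Wald test. Leaving out 1 library gave -0.025 to 0.037 for Col4a1, -0.012 to 0.095 for Col3a1, -0.014 to 0.066 for Col4a2 and -0.0090 to 0.12 for Col18a1. In female brain Col1a1 ranged from -0.18 to 0.17 and Col1a2 from -0.046 to 0.088. In cerebellum Col18a1 was 0.0012 with the size factors and 0.0012 with the Wald test, 0.046 with the erythroid mean and -0.012 to 0.020 with 1 library left out. There Col4a1 was 0.038 with the erythroid mean, Col1a2 ranged from -0.047 to 0.059 and Col3a1 from -0.17 to 0.086. Over both sexes Col4a2 ranged from -0.044 to 0.0041.

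Replicate numbers did not pair the samples. Deviations of same-numbered samples from their group means correlated at -0.098 (males), -0.065 (females) and -0.047 (cerebellum). With the replicate block the counts were 0, 0, 3 and 0 for male brain, female brain, cerebellum and both sexes and 29 for tissue, and Col1a1 in female brain was -0.0035. The adjusted p of Col22a1 over both sexes was 0.0812 with it by edgeR.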
